A study of Rattus norvegicus with 6 samples.

Results

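Extracellular matrix glycoproteins are the secreted, sugar-bearing proteins that are built with collagens and proteoglycans into basement membranes, elastic fibres and pericellular matrix. Laminins are trimers of an alpha, a beta and a gamma chain and form the sheet of the basement membrane under an epithelium, where nidogens link them to collagen IV. Fibrillins and EMILINs belong to microfibrils, fibulins join fibrillin, elastin and basement membrane, and latent TGF beta binding proteins (LTBPs) hold the stored form of TGF beta on microfibrils. In the inner ear, the vestibular epithelium rests on a basement membrane and is covered by the extracellular otolithic membrane or cupula. The genes were taken by name. They are the laminin, nidogen, fibrillin, LTBP, fibulin, EFEMP, EMILIN, thrombospondin, spondin, matrilin, NELL and CRISPLD genes, with Fn1, Postn, Sparc and Tnr, 45 of the 32883 genes in the table. The families were picked with results of this same comparison known, so every value below describes these genes and serves as no independent support for a change of the group.

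The libraries came from the vestibular epithelium of male adult Long-Evans rats. The 3 IDPN-4wk rats drank water with 20 mM of 3,3'-iminodipropionitrile (IDPN), a compound toxic to hair cells (HCs), for 4 weeks, and the 3 control rats drank plain water. A library holds the pooled utricles and cristae of a single rat, so the spread within a group is between animals. The animal codes of the 3 IDPN-4wk rats share a prefix that no control has, the labels do not say what it marks, and whatever it marks cannot be told apart from the treatment. The groups were compared to find which transcripts change under subchronic ototoxic exposure.

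Total counts ranged from 13358678 to 18561991 per library, and a count of 3 was equal to 0.155 to 0.216 CPM, depending on the library. CPM is the count of a gene relative to all counts of its library, here scaled with TMM factors. The 12 HC markers examined had at least 3.86 CPM in every library, so the labelled tissue was present. All 12 had a log2-Fold change below 0, and their summed level was 3582 to 3688 CPM in the controls and 2322 to 2740 CPM in IDPN-4wk. In such bulk samples, fewer cells of a type and less RNA per cell cannot be told apart.

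Of the 45 matrix glycoprotein genes, 42 had enough counts to be tested. Genes were called downregulated or upregulated in a fit over all 14352 tested genes where the edgeR Padj was under 0.05 and the fold change exceeded 1.5. Downregulated genes numbered 15 (35.7% of those tested, where 6.62% of all tested genes were downregulated). Upregulated genes numbered 3 (7.14%, where 3.09% of all tested genes were upregulated). Together 18 were called, and 9.71% of all tested genes were called in either direction. The median log2-Fold change was -0.32 over the 42 genes and 0.02 over all tested genes, and 31 of the 42 had a log2-Fold change below 0. Control and treated animals did not overlap in 27 genes (64.3%, where 37.8% of all tested genes did not overlap). The matrix glycoprotein genes together held 6472 to 6622 CPM in the controls and 4559 to 4882 CPM in the IDPN-4wk libraries.

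Each of the 5 role groups described below held 3 downregulated genes, of 4 to 13 tested (23.1% to 75%, where 6.62% of all tested genes were downregulated). The beta 3 chain of laminin (Lamb3), the proteins LTBP1 and LTBP2, fibronectin (Fn1), matrilins 2 and 4, spondin 1 (Spon1), NELL1 and CRISPLD2 had lower transcripts in IDPN-4wk animals, as had Lama1, Lama2, Fbln2, Thbs1, Thbs4 and Nell2. Fibrillin 1, both nidogens, the laminin chains Lamb1, Lamb2 and Lamc1 and the proteins LTBP3 and LTBP4 had log2-Fold changes between -0.25 and 0.20 and were not called. The genes called upregulated were Emilin2, Matn3 and Thbs3. Matn3 and Thbs3 had few counts. Tested against a fold change of 1.5 itself with glmTreat in edgeR, 8 of the 18 genes lost their call (Lama1, Lama2, Fbln2, Emilin2, Thbs1, Thbs3, Thbs4 and Nell2).

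**Figure D1:**
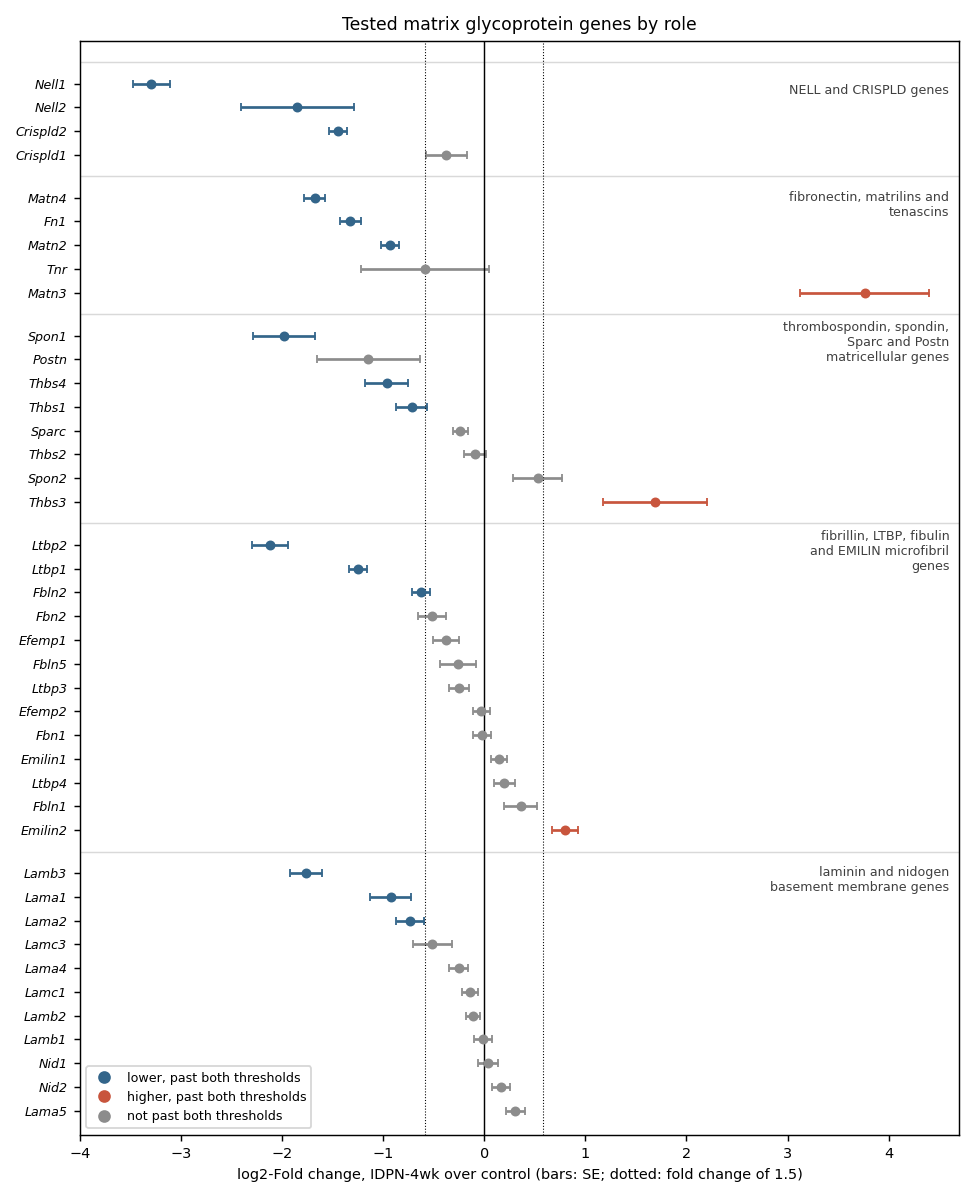
Log2-Fold change of IDPN-4wk over control for 41 of the 42 tested matrix glycoprotein genes, in groups by role (x axis, log2 scale; points are edgeR estimates, bars are SE, dotted lines mark a fold change of 1.5). The 15 downregulated genes lie on the left in blue, from Nell1 (-3.30) to Fbln2 (-0.62), the 3 upregulated genes on the right in red, and genes in grey were not past both thresholds.

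Start site sequences are shown for the called genes with the smallest p. They came from RefSeq (build GRCr8) and run from 250 bases before to 50 bases after the annotated start of a gene. By symbol, 32 of the 45 genes matched. The others included Crispld1, Emilin1, Fbln1, Fn1, Lamb2, Matn1, Matn2, Matn4, Nell2, Nid2, Spon1 and Thbs2. The 5 downregulated genes with the smallest p among those matched, and the upregulated gene with the smallest p and a single annotated start, are printed 5′ to 3′ on the strand of the gene. Capitals mark each match, on either strand, to the core promoter element TATAAA, the Sp1 element GGGCGG, the AP-1 element TGANTCA, the TEAD element GGAATG, or the cyclic AMP response element TGACGTCA. The last of these was added to the search after the sequences had been read.
Nell1, chr1:108845212-108845511, plus strand: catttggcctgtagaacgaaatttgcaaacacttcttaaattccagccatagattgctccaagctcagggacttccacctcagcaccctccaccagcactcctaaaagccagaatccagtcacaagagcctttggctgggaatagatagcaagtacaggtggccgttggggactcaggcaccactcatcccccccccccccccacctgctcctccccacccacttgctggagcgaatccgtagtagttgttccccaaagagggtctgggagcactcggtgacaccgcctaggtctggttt
Crispld2, chr19:64978706-64979005, plus strand: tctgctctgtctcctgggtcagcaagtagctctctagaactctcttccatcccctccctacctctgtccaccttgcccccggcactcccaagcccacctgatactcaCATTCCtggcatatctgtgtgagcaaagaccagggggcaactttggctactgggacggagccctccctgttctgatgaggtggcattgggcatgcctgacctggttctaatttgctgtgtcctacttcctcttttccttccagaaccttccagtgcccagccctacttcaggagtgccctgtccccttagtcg
Ltbp1, chr6:26177252-26177551, minus strand: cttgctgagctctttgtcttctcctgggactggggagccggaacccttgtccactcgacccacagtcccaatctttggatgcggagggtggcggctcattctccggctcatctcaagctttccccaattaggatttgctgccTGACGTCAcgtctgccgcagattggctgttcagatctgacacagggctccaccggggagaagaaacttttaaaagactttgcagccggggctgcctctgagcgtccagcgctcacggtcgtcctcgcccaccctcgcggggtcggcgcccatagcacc
Ltbp2, chr6:110257249-110257548, minus strand: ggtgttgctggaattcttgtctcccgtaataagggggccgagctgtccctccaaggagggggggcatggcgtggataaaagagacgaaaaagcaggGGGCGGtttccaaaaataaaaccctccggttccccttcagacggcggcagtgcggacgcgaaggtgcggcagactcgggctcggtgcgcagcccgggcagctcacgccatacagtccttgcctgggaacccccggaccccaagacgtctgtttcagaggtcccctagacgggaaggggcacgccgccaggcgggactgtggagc
Lamb3, chr13:107362303-107362602, plus strand: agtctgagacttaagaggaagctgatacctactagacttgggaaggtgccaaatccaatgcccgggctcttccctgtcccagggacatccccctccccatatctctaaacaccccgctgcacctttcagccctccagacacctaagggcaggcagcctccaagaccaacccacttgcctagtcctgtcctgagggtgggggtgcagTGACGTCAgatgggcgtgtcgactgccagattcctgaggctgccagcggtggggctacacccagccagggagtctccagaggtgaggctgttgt
Matn3, chr6:37467479-37467778, plus strand: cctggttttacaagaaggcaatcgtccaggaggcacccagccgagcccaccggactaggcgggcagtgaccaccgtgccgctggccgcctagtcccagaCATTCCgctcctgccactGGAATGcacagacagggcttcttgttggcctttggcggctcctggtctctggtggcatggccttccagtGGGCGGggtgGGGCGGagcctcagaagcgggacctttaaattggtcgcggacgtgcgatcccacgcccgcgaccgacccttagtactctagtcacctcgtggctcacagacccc

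Among the 32 sequences, TATAAA was found in 2 (6.25%, where 14.2% of all 33469 RefSeq start site sequences hold it) and GGGCGG in 18 (56.2%, 33.1% of all). GGAATG was found in 11 (34.4%, 14.2% of all) and TGANTCA in 1 (3.12%, 7.33% of all). TGACGTCA was found in 2, Ltbp1 and Lamb3 (6.25%, 1.83% of all). It was searched for only after the printed sequences, which include both, had been read. Its share and its count among called genes are therefore no measure of an excess. Of the 13 matched genes that were called, 7 held GGGCGG, 5 held GGAATG and 2 held TGACGTCA. GC content had a median of 63.2% in the 32 sequences and 51.7% in all. It was 60.0% in the 13 matched genes that were called and 63.7% in the 17 that were tested and not called. These matches are letters in a window of 300 bases, whose content in GC differs from that of the whole set, and no binding was measured.

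Laminin and nidogen genes make the basement membrane. Of 12 tested, 3 were downregulated and 0 upregulated, and the median log2-Fold change was -0.13. Lamb3 (ENSRNOG00000006025) encodes the beta 3 chain of the laminin that anchors epithelial cells through hemidesmosomes. Its level was 372, 474 and 401 CPM in the control libraries and 91.5, 151 and 124 CPM in the IDPN-4wk libraries. The lowest control library was thus well above the highest IDPN-4wk library, and the mean fell to 29.4% of control (416 ± 52.3 against 122 ± 29.8 CPM, SD, n = 3 each), with a log2-Fold change of -1.76 (edgeR SE 0.16, Padj 5.18e-05).

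The other downregulated laminins were alpha chains. Lama2 (ENSRNOG00000011134), the chain of muscle and Schwann cell basement membranes, had 136, 95.1 and 119.5 CPM in the controls and 72.5, 58.2 and 79.9 CPM in the IDPN-4wk libraries. The groups did not overlap (log2-Fold change -0.74, SE 0.14, edgeR Padj 0.00438). Of 8 markers of Schwann cells, 7 had a log2-Fold change below 0 in the same libraries, as had 6780 of all 14352 tested genes. Only Pmp22 of the 8 was called (12.5%, where 6.62% of all tested genes were downregulated), and Sox10 had a log2-Fold change of 0.19. The summed level of the 8 was 13020 to 16290 CPM in the controls and 9328 to 12870 CPM in IDPN-4wk. Their part in the Lama2 result was not tested. Lama1 (ENSRNOG00000017237), a chain of embryonic and epithelial basement membranes, had 13.04, 15.5 and 13.4 CPM in the controls and 5.18, 8.87 and 7.92 CPM in the IDPN-4wk libraries (log2-Fold change -0.93, SE 0.20, edgeR Padj 0.00958). All 3 IDPN-4wk animals were below the lowest control.

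Of the laminins and nidogens that were not called, Lamc3 had the lowest log2-Fold change (-0.51, SE 0.20, edgeR Padj 0.0921). Lama5, a main alpha chain of adult epithelia, had 64.2, 62.6 and 54.8 CPM in the controls and 67.7, 81.0 and 75.5 CPM in the IDPN-4wk libraries. The groups did not overlap, and the difference was under the fold threshold (log2-Fold change 0.30, SE 0.09, edgeR Padj 0.0448). Lamb2 had 639, 638 and 633 CPM in the controls and 573, 581 and 615 CPM in the IDPN-4wk libraries (log2-Fold change -0.11, SE 0.07, edgeR Padj 0.280). Nid1 had 305, 243 and 275 CPM in the controls and 273, 263 and 308 CPM in the IDPN-4wk libraries, which overlapped (log2-Fold change 0.04, SE 0.10). Log2-Fold changes were 0.17 for Nid2, -0.02 for Lamb1, -0.15 for Lamc1 and -0.25 for Lama4.

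**Figure D2:**
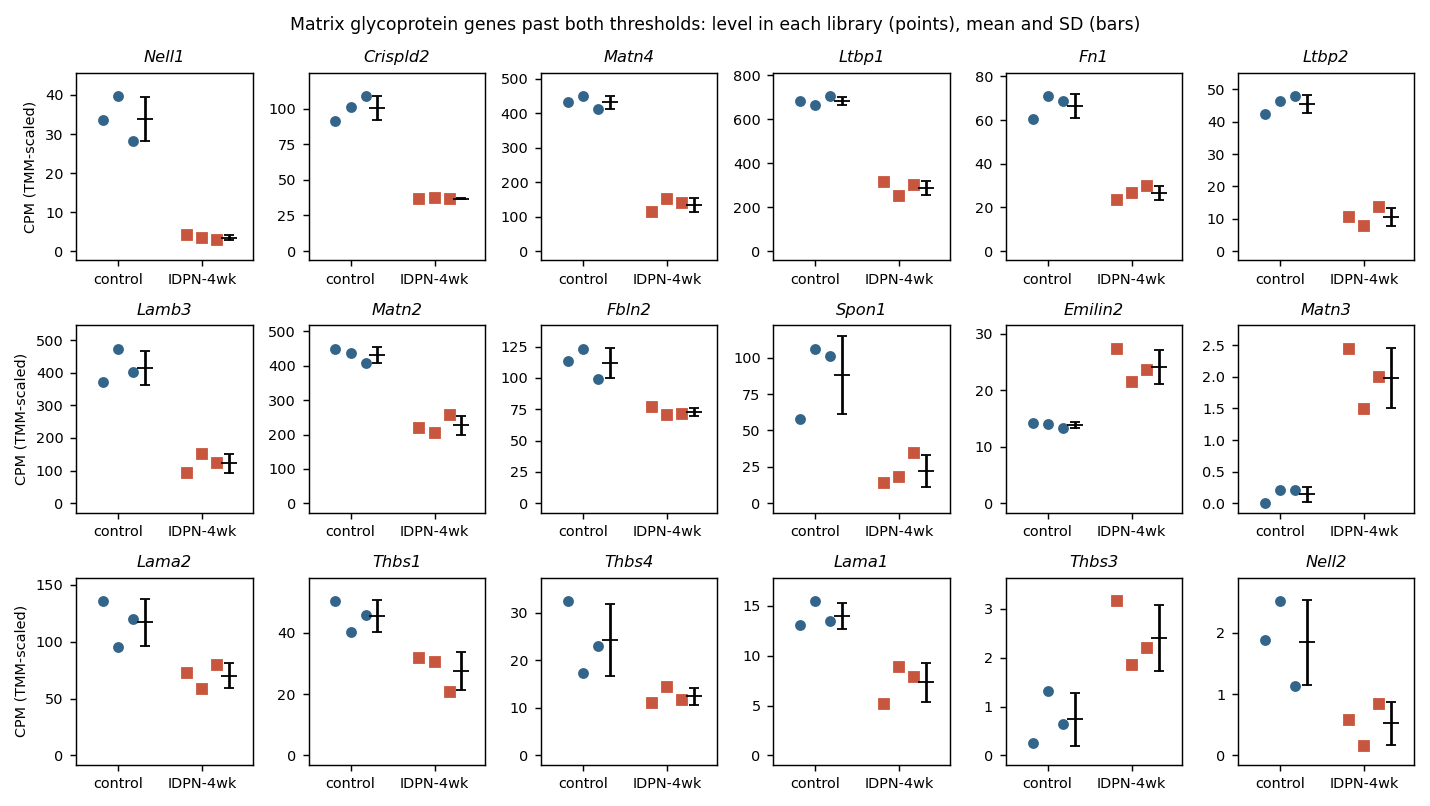
Level of the 18 called matrix glycoprotein genes in each library (y axis, TMM-scaled CPM; circles are the 3 control and squares the 3 IDPN-4wk animals; bars are mean ± SD), ordered by p. In Nell1 the controls lie from 28.3 to 39.6 CPM and the IDPN-4wk animals from 2.83 to 4.17 CPM, while in Thbs4 the lowest control (17.4 CPM) lies close to the highest IDPN-4wk animal (14.5 CPM).

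Genes of microfibrils and elastic fibres had 3 downregulated and 1 upregulated member of 13 tested, and a median log2-Fold change of -0.25. The decreases were largest in a pair of LTBPs. Ltbp1 (ENSRNOG00000033090), which binds latent TGF beta, had 682, 667 and 704 CPM in the controls and 313, 249.97 and 300.4 CPM in the IDPN-4wk libraries. Every treated animal was far below the lowest control (log2-Fold change -1.25, SE 0.09, edgeR Padj 1.66e-05). Ltbp2 (ENSRNOG00000012094), an LTBP that does not bind TGF beta and is found on elastic microfibrils, had 42.6, 46.3 and 47.8 CPM in the controls and 10.4, 7.69 and 13.5 CPM in the IDPN-4wk libraries. It fell to 23.1% of the control mean (log2-Fold change -2.12, SE 0.17, edgeR Padj 3.66e-05).

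The other LTBPs were not called. Ltbp3 had 83.2, 102 and 104 CPM in the controls and 74.6, 82.9 and 85.8 CPM in the IDPN-4wk libraries, with overlap between the groups (log2-Fold change -0.25, SE 0.10, edgeR Padj 0.102). Ltbp4 had 150.2, 149 and 131 CPM in the controls and 137, 184 and 172 CPM in the IDPN-4wk libraries, again with overlap (log2-Fold change 0.20, SE 0.11, edgeR Padj 0.223).

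Among fibulins and fibrillins, Fbln2 (ENSRNOG00000007338), which links fibronectin, fibrillin and basement membrane, was called close to the fold threshold. It had 114, 123 and 99.2 CPM in the controls and 76.4, 70.8 and 71.2 CPM in the IDPN-4wk libraries (log2-Fold change -0.62, SE 0.09, edgeR Padj 8.62e-04). Without control replicate 2 its log2-Fold change was -0.55, and with libraries scaled by their size instead it was -0.51, both under the threshold. Fbn2, a fibrillin of developing tissue, stood at a log2-Fold change of -0.52 (edgeR SE 0.14, Padj 0.0221), under the fold threshold, and was past that threshold without IDPN-4wk replicate 3 (-0.70, Padj 0.00179). Fbn1, the main adult fibrillin, had 60.7, 55.6 and 52.1 CPM in the controls and 57.5, 52.5 and 56.1 CPM in the IDPN-4wk libraries (log2-Fold change -0.02, SE 0.09). Log2-Fold changes were -0.38 for Efemp1, -0.03 for Efemp2, 0.36 for Fbln1 and -0.26 for Fbln5.

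Emilin2 (ENSRNOG00000014837), an EMILIN of the vessel wall and elastic fibres, was the upregulated member. It had 14.2, 14.0 and 13.3 CPM in the controls and 27.4, 21.5 and 23.7 CPM in the IDPN-4wk libraries (log2-Fold change 0.80, SE 0.13, edgeR Padj 0.00176). The controls lay within a narrow range and every treated animal was above it. Emilin1 stood at a log2-Fold change of 0.15 (edgeR SE 0.08, Padj 0.246). Emilin3 was under the count filter, with 0, 3 and 0 counts in control and 8, 7 and 6 counts in IDPN-4wk libraries. The ratio of its CPM over each group was 6.30 (95% counting interval 1.88 to 33.0), which covers counting error only. Fbln7, also under the filter, had 5, 8 and 11 counts in control and 4, 2 and 6 counts in IDPN-4wk libraries.

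Thrombospondins, spondins, SPARC and periostin are matricellular proteins, which act on cells and on matrix assembly more than as structural parts. Of 8 tested, 3 were downregulated and 1 upregulated, and the median log2-Fold change was -0.48. Spon1 (ENSRNOG00000058003), a secreted protein of floor plate and neural tissue, had 57.6, 106 and 101 CPM in the controls and 14.1, 18.1 and 34.8 CPM in the IDPN-4wk libraries. It fell to 25.3% of the control mean (log2-Fold change -1.98, SE 0.30, edgeR Padj 0.00124). Control replicate 1 was low and IDPN-4wk replicate 3 was high within their groups, and without the latter the log2-Fold change was -2.46.

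Thbs1 (ENSRNOG00000045829), a secreted thrombospondin that activates latent TGF beta and limits vessel growth, had 50.4, 40.2 and 45.8 CPM in the controls and 31.8, 30.5 and 20.5 CPM in the IDPN-4wk libraries (log2-Fold change -0.72, SE 0.16, edgeR Padj 0.00938). It was under the fold threshold without IDPN-4wk replicate 3 (-0.56). Thbs4 (ENSRNOG00000012471), a thrombospondin of muscle, tendon and synapse, had 32.5, 17.4 and 23.0 CPM in the controls and 11.1, 14.5 and 11.7 CPM in the IDPN-4wk libraries (log2-Fold change -0.96, SE 0.21, edgeR Padj 0.00954). Its controls varied more than its treated animals, and the groups did not overlap. Thbs2 had 205, 182 and 200.2 CPM in the controls and 216, 161 and 174 CPM in the IDPN-4wk libraries, which overlapped (log2-Fold change -0.09, SE 0.11).

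Thbs3 (ENSRNOG00000059903) was called upregulated from few reads, 4, 19 and 9 counts in control and 44, 36 and 34 counts in IDPN-4wk libraries (log2-Fold change 1.69, SE 0.51, edgeR Padj 0.0406). Every treated library was above every control. With each library left out in turn, the call held in 1 of 6 fits, that without control replicate 2 (log2-Fold change 2.41, edgeR Padj 0.0210), and edgeR Padj in the other 5 was from 0.0625 to 0.144.

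Sparc, a collagen-binding protein, had 1209, 1264 and 1207 CPM in the controls and 1069.7, 958 and 1093 CPM in the IDPN-4wk libraries. The groups did not overlap and the difference was small (log2-Fold change -0.24, SE 0.07, edgeR Padj 0.0461). Postn, a periostin of fibrous tissue, had 4.58, 5.87 and 4.03 CPM in the controls and 0.791, 1.24 and 4.51 CPM in the IDPN-4wk libraries. IDPN-4wk replicate 3 lay among the controls, so that the groups overlapped (log2-Fold change -1.15, SE 0.51, edgeR Padj 0.142). Without that library Postn was called (-2.23, edgeR Padj 0.00229). Spon2 stood at a log2-Fold change of 0.53 (edgeR SE 0.24, Padj 0.156).

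Fibronectin, the matrilins and tenascin R were the next group, with 3 downregulated and 1 upregulated of 5 tested. Fn1 (ENSRNOG00000014288), the fibronectin that cells bind through integrins, had 60.4, 70.8 and 68.6 CPM in the controls and 23.4, 26.6 and 29.6 CPM in the IDPN-4wk libraries. It fell to 39.9% of control (66.6 ± 5.46 against 26.6 ± 3.09 CPM, SD, n = 3 each), with a log2-Fold change of -1.32 (edgeR SE 0.11, Padj 3.53e-05).

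Matrilins are adaptor proteins that link collagen fibrils and proteoglycans into filaments. Matn4 (ENSRNOG00000014021) had 433, 448 and 411 CPM in the controls and 112, 151 and 141 CPM in the IDPN-4wk libraries (log2-Fold change -1.68, SE 0.10, edgeR Padj 8.48e-06). Matn2 (ENSRNOG00000006060) had 450.1, 437 and 407 CPM in the controls and 219, 204 and 256 CPM in the IDPN-4wk libraries (log2-Fold change -0.93, SE 0.09, edgeR Padj 9.20e-05). Levels in IDPN-4wk animals were 31.2% of control for Matn4 and 52.5% for Matn2, with narrow spread in both groups. Matn4 overlaps the gene Rbpjl in RefSeq, and the libraries do not keep the strand. Rbpjl had a log2-Fold change of 0.38 and a mean of 17.6 CPM in the controls and 22.9 CPM in the IDPN-4wk libraries, and the part of shared reads in the Matn4 values was not tested.

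Matn3 (ENSRNOG00000056141), the matrilin of growth cartilage, was called upregulated (edgeR Padj 0.00238). It had 0, 3 and 3 counts in control and 34, 29 and 31 counts in IDPN-4wk libraries, so that control libraries were at or under 3 counts and every treated library was well above that. The ratio of its CPM over each group was 14.1 (95% counting interval 6.24 to 39.4). Its fitted log2-Fold change (3.76) was 3.17 without control replicate 1. Matn1, under the count filter, had 2, 0 and 0 counts in control and 0 in each IDPN-4wk library, where no fold can be given. Tnr, a tenascin of the perineuronal matrix of the nervous system, had 8, 10 and 13 counts in control and 13, 3 and 6 counts in IDPN-4wk libraries (log2-Fold change -0.59, SE 0.63, edgeR Padj 0.558).

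NELL and CRISPLD proteins are secreted proteins. NELL1 is known from bone formation, NELL2 from neurons, where it is a ligand of the guidance receptor ROBO3, and CRISPLD2 from craniofacial and lung development. Of 4 tested, 3 were downregulated. Nell1 (ENSRNOG00000015675) had 33.5, 39.6 and 28.3 CPM in the controls and 4.17, 3.35 and 2.83 CPM in the IDPN-4wk libraries, and its mean was 10.2% of the control mean (log2-Fold change -3.30, SE 0.18, edgeR Padj 8.48e-06). It had the lowest log2-Fold change of the 42 genes, and even its lowest IDPN-4wk library held 44 counts. Nell1 overlaps the genes LOC102557182 and 4933405O20Rikl in RefSeq, neither of which was among the tested genes by symbol. The part of shared reads in the Nell1 values was not tested. Crispld2 (ENSRNOG00000016752) had 91.4, 101 and 108.5 CPM in the controls and 36.4, 37.1 and 36.8 CPM in the IDPN-4wk libraries (log2-Fold change -1.45, SE 0.09, edgeR Padj 8.48e-06). The treated animals were within 1 CPM of each other.

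Nell2 (ENSRNOG00000006235) was called from few reads. It had 29, 36 and 16 counts in control and 8, 3 and 13 counts in IDPN-4wk libraries (log2-Fold change -1.85, SE 0.56, edgeR Padj 0.0409). The groups did not overlap in CPM, but with each library left out in turn the call held in 1 of 6 fits, that without IDPN-4wk replicate 3 (-2.41, edgeR Padj 0.0268). In the other 5, edgeR Padj was from 0.0506 to 0.151. Crispld1 stood at a log2-Fold change of -0.38 (edgeR SE 0.20, Padj 0.223). Its controls, at 18.8, 10.8 and 14.4 CPM, overlapped the treated libraries, at 12.2, 9.70 and 12.2 CPM.

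**Figure D3:**
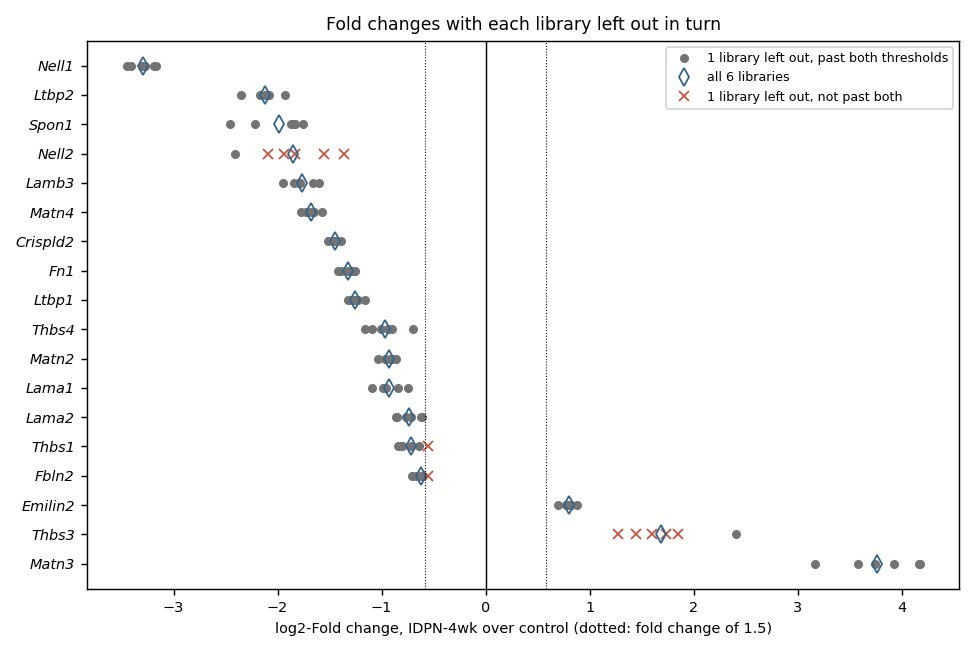
Log2-Fold change of the 18 called genes with all 6 libraries (diamonds) and with each library left out in turn (circles where still past both thresholds, crosses where not; x axis, log2 scale, dotted lines at a fold change of 1.5). Nell2 and Thbs3 have crosses in 5 of 6 fits, Thbs1 and Fbln2 in 1 each, and the other 14 genes in 0.

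Within families, the ratio of a pair of genes in the same library does not depend on how libraries are scaled. In each family with at least 2 tested genes of at least 50 mean counts, the gene with the lowest log2-Fold change was set against the one with the highest, among genes reported by name. These pairs were chosen on their values and are a description. The log2 ratio of Ltbp2 to Ltbp4 was lower in IDPN-4wk than in control libraries by a mean difference of -2.34 (SD 0.19 in control and 0.52 in IDPN-4wk, n = 3 each). The difference was -1.77 for Lamb3 to Lamb1, -2.54 for Spon1 to Spon2, -1.27 for Lama1 to Lama5, -0.99 for Fbln2 to Fbln1 and -0.76 for Matn4 to Matn2. Control and treated animals were apart in 10 of the 13 pairs. They overlapped for Nid1 to Nid2 (-0.13), Efemp1 to Efemp2 (-0.35) and Lamc3 to Lamc1 (-0.35). With n = 3 each, such an overlap does not show that a ratio was unchanged. For Nid1 to Nid2, IDPN-4wk replicates 1 and 2 (-0.285 and -0.18) were below every control (-0.033 to 0.04). IDPN-4wk replicate 3 (0.086) was above them.

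**Figure D4:**
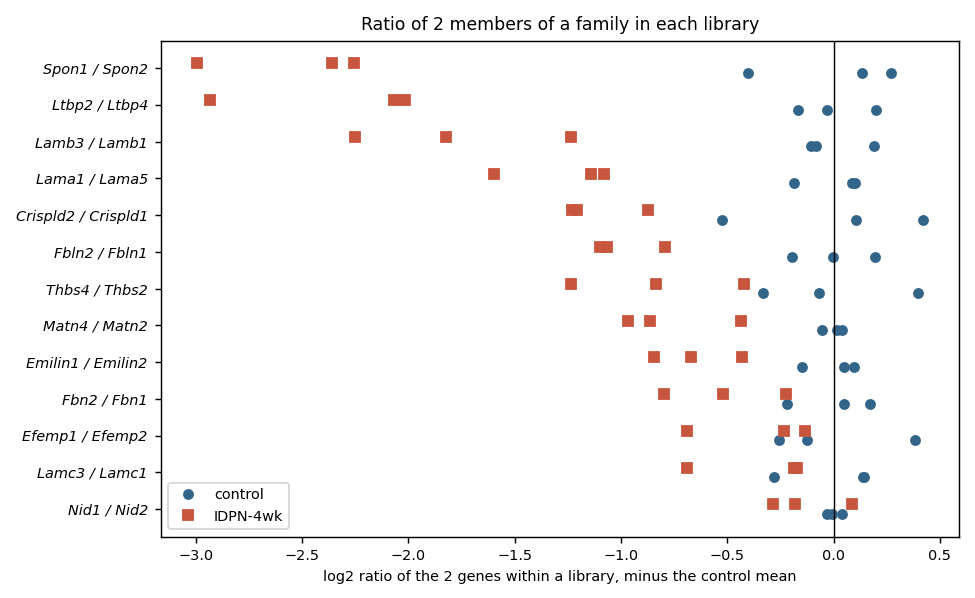
Log2 ratio of a pair of genes of the same family within each library, minus the control mean of that ratio (x axis; circles are control and squares IDPN-4wk animals; y axis, the pairs). The IDPN-4wk animals lie to the left of every control animal in 10 pairs, from -2.25 or lower for Spon1 to Spon2 to narrow gaps for Fbn2 to Fbn1, and they overlap the controls for Efemp1 to Efemp2, Lamc3 to Lamc1 and Nid1 to Nid2.

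The receptors and partners of these proteins were counted in lists of other genes. Over all tested genes, 6.62% were downregulated and 3.09% upregulated. Of 20 integrin genes tested, 1 was downregulated (5%) and 0 upregulated, and the median log2-Fold change was -0.06. The gene was Itga8, an alpha chain of a fibronectin and nephronectin receptor (26.2 ± 6.68 CPM in the controls and 16.1 ± 2.72 CPM in IDPN-4wk, SD, n = 3 each), at a log2-Fold change of -0.71 (edgeR SE 0.19, Padj 0.0228). Of 16 other matrix receptors and adhesion genes tested, 4 were downregulated (25%) and 1 upregulated (6.25%). The downregulated ones were the heparan sulfate proteoglycans Sdc2 (-0.78) and Sdc3 (-0.77), delta-sarcoglycan Sgcd (-1.51) of the dystrophin complex, and contactin Cntn1 (-0.88), a neural adhesion molecule. Sdc1, a syndecan of epithelial cells, was upregulated, with 27.8, 25.9 and 27.8 CPM in the controls and 62.3, 58.5 and 50.2 CPM in the IDPN-4wk libraries (log2-Fold change 1.07, SE 0.10, edgeR Padj 7.94e-05). Its groups were far apart.

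Among 11 elastic fibre and crosslinking genes tested, 1 was downregulated (9.09%, where 6.62% of all tested genes were) and 2 upregulated (18.2%, where 3.09% were). Loxl2, a lysyl oxidase, fell (log2-Fold change -1.51, SE 0.33, edgeR Padj 0.0103), whereas Lox, a crosslinking enzyme of the same family, rose (0.90, SE 0.21, edgeR Padj 0.0139). Mfap5, a protein of fibrillin microfibrils, rose (0.66, SE 0.19, edgeR Padj 0.0317). Of 14 proteoglycans, link proteins and other tenascins tested, 3 were downregulated (21.4%) and 1 upregulated (7.14%). Aggrecan (Acan), the large proteoglycan of cartilage and perineuronal matrix, had 50.2, 47.2 and 51.4 CPM in the controls and 7.05, 8.00 and 20.4 CPM in the IDPN-4wk libraries (log2-Fold change -2.07, SE 0.31, edgeR Padj 0.00106). All treated animals were lower than the controls, IDPN-4wk replicate 3 the least so. The small proteoglycans Fmod (-0.97, SE 0.23, edgeR Padj 0.0143) and Lum (-1.42, SE 0.29, edgeR Padj 0.00633) fell, and the link protein Hapln2 rose (2.65, SE 0.52, edgeR Padj 0.00526) from a mean of 0.476 to 3.02 CPM.

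Matrix genes are made by several cell types that a dissected epithelium can hold, so their markers are given beside them. Each share below stands beside the 6.62% of all tested genes that were downregulated and the 3.09% that were upregulated. Markers of stroma, the cells that make fibrous matrix, had 1 downregulated (10%) and 2 upregulated (20%) of 10 tested. The median log2-Fold change of the stroma markers was 0.26. Lum, the downregulated one, and Dcn also belong to the proteoglycan list above, so the lists are not independent. Their summed level was 873 to 1050 CPM in the controls and 839 to 950.2 CPM in the IDPN-4wk libraries. Endothelial and mural markers had 2 downregulated of 9 (22.2%), Kcnj8 and Abcc9, and a median log2-Fold change of -0.28. Their sum was 494 to 618 CPM in the controls and 451 to 515.5 CPM in IDPN-4wk. Supporting cell markers had 3 downregulated of 12 (25%), which were Otog, Otogl and Gjb6, and a median log2-Fold change of -0.32. Their sum was 10600 to 11630 CPM in the controls and 6015 to 7291 CPM in IDPN-4wk. Most of that difference in the sum was in Otog, a protein of the otolithic membrane and cupula (mean 6262 CPM in the controls and 3199 CPM in IDPN-4wk). Of the 12 markers, 10 had a log2-Fold change below 0. Markers of dark cells and melanocytes had 3 downregulated of 7 (42.9%) and a median log2-Fold change of -0.66, the lowest of the marker lists. All 7 had a log2-Fold change below 0. The called ones were the dark cell genes Kcnq1 (-1.87), Slc12a2 (-1.06) and Atp1b2 (-0.60). Kcne1 and the melanocyte genes Tyr, Pmel and Mlana were not called. The sum of the list was 1935 to 2507 CPM in the controls and 1380 to 1531 CPM in IDPN-4wk. HC markers had 6 downregulated of 12 (50%) and a median log2-Fold change of -0.59. Neuron markers had 2 downregulated and 2 upregulated of 7 (28.6% each), with a median log2-Fold change of -0.43. Macrophage and leukocyte markers had 1 and 1 of 10 (10% each), with a median of 0.03. The neuron marker Stmn2 and the supporting cell marker Hes5 were near 0 in every library, at or under 0.425 CPM. The part of these cells in the decreases of Lamb3, Matn4, Ltbp1, Ltbp2, Fn1, Spon1 and Nell1 was not tested.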

How the data were processed

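RNA-seq libraries of the vestibular epithelium of 3 control and 3 IDPN-4wk rats were made by the authors with oligo-dT priming and template switching (SMART-seq2). The authors aligned rat paired-end reads to Rnor6.0 with STAR (2.5.3a in the submitters' processing notes) and deposited expected counts per gene from RSEM (1.3.0 in those notes). RSEM divides reads shared by similar genes, the protocol keeps no strand, and PCR copies were not marked, so counting intervals cover counting error only. All deposited values were whole. Samples were grouped by their treatment label, and the batch label is the same for all of them. Replicates carry no number in the labels and were numbered in accession order.

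Genes passing filterByExpr (minimum count 10, minimum total 15) entered the edgeR 4.0.16 quasi-likelihood test (R 4.3.3), after TMM scaling, with Benjamini-Hochberg adjustment over all 14352 tested genes. Calls needed a Padj under 0.05 and a fold change over 1.5. SE was taken from the quasi F statistic. DESeq2 1.42.0, other scalings and filters, glmTreat and leaving out each library were alternatives. RefSeq GRCr8 tables gave start site sequences and overlapping genes. All called members are given per library and the others in groups, with some of the others given per library after their values were seen. Genes of the receptor, elastic fibre and proteoglycan lists are named where called, and cell type markers where a statement needs them. The members and lists were chosen with earlier results of these data known. Tnxb and Lama3 were not analysed here, and a member that was tested and counted is not reported here by name.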

Additional observations from a re-analysis of the deposited data

How the results depend on the processing

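No paired analysis was run, because the labels give no replicate numbers that the groups share. The animal codes of each group end in LF, NM and RF, and the labels do not say what these endings mark. The 15 downregulated and 3 upregulated genes were also the ones called with DESeq2 size factors, upper quartile scaling, no count filter and the DESeq2 Wald test. With library size alone the median log2-Fold change of all genes was 0.13 in place of 0.02, that of the matrix glycoprotein genes was -0.21, and Fbln2 was lost. With a mean of at least 50 counts, 14 downregulated genes and 1 upregulated gene were called, since the downregulated Nell2 and the upregulated Matn3 and Thbs3 were not tested. With glmTreat at a fold of 1.5, 9 were downregulated and 1 upregulated, where 354 and 99 of all 14352 tested genes were. In that fit Lama1, Lama2, Fbln2, Emilin2, Thbs1, Thbs3, Thbs4 and Nell2 lost their call (edgeR Padj 0.254 to 1). With an adjusted p alone 17 were downregulated and 5 upregulated, where 1646 and 1132 of all 14352 tested genes were. Leaving out each library gave 13 to 16 downregulated genes, 2 to 3 upregulated genes, and a median from -0.41 to -0.26. No log2-Fold change of a called gene changed sign under any of these alternatives. Of the 18 called genes, 14 kept their call whichever library was left out. Nell2, Thbs3, Matn3 and Tnr had under 50 counts in every library, where counting error is large.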

Other observations

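The position of the treated animals differed from gene to gene. Of the 15 downregulated matrix glycoprotein genes, IDPN-4wk replicate 3 was the treated library closest to the control mean in 6, IDPN-4wk replicate 2 in 5 and IDPN-4wk replicate 1 in 4. Over all 950 downregulated genes, IDPN-4wk replicate 3 was the closest in 63.5%, and over the 12 HC markers in 8. In Lamb3 and Matn4, IDPN-4wk replicate 1 was the lowest library. In Spon1, Ltbp2, Fn1 and Postn, IDPN-4wk replicate 3 was the closest to control. Whether these orders differ beyond chance was not tested.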
